A study of Mus musculus with 2 samples.

Results

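The major urinary proteins (Mups) were examined through 9 genes, Mup1, Mup2, Mup3, Mup7, Mup11, Mup12, Mup17, Mup20 and Mup21, of the 22 features whose symbol is Mup followed by a number and of 32285 features in all. The 9 genes were selected on measured values of these same cells, in which several of them differed between genotypes, so every difference between genotypes in a member is given as a description and not as a test. Members were taken by exact gene symbol, and each of them was counted in both libraries.

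The study asked how loss of the cis-prenyltransferase subunit NgBR, encoded by Nus1, changed liver cells under a Western diet (WD), a high-fat, high-cholesterol feed. The WT library came from the liver of a control mouse (genotype label CTRL) and the N-LKO library from liver plus tumor of a liver-specific NgBR KO mouse, both fed WD for 16 weeks by their treatment labels, although the sample titles read HFD. By the study's methods all mice were C57BL6 and male, and N-LKO mice carried a loxP-flanked NgBR allele deleted by an albumin-driven Cre, which acts in hepatocytes. The alleles of the control mouse are given only as CTRL. Cells from a collagenase-perfused liver were mixed from hepatocytes and nonparenchymal cells, with tumor cells added for N-LKO only, and each genotype was a single 10x 3′ v3 library. Tumor hepatocytes and other hepatocytes of the N-LKO library carried no label, and genotype, tumor and library cannot be told apart.

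Mups are small lipocalins, proteins folded as a barrel around a ligand pocket. Hepatocytes secrete them into the blood, the kidney passes them into urine, and there they bind and slowly release volatile pheromones. Most of the near-identical copies are strongly male-biased in mouse liver, because pulses of growth hormone acting through STAT5b keep them on in males. Mup20, also called darcin, is a protein pheromone in its own right that draws females to male urine, and Mup3 is an abundant liver form whose transcript is distinct from the near-identical copies.

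The annotated family lay in one cluster at chr4:59956804-62150863 (GENCODE, GRCm38), a span of 2.19 Mb that held all 22 genes. Mup7, Mup2, Mup1, Mup11, Mup12 and Mup17, called the central members below, lay among the near-identical copies, and Mup20, Mup3 and Mup21 followed one another at the distal end. All 9 members were read from the minus strand and were annotated as protein coding. The matrices hold no coordinates and the submitters' notes name mm9, so these positions are those of the GRCm38 annotation, in which the identifiers of all 22 features were found.

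Upstream sequence differed in spacing between the central and distal members for which it was given. The lines below show 150 bases of the minus strand ending at the TATATAA box of 3 central and 2 distal members, printed because they let a reader see how the copies differ, with ATCAAT and TATATAA in capitals (RefSeq promoters, GRCm38.p6).
Mup2: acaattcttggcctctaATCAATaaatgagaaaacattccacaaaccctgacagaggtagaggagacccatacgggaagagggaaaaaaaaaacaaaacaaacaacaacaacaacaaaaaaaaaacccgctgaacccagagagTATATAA
Mup11: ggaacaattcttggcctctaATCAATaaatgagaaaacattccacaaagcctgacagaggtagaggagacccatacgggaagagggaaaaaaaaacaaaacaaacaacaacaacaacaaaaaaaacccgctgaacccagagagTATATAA
Mup17: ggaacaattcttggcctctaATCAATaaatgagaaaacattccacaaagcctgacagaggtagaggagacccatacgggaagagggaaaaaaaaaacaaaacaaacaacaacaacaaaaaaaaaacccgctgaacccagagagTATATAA
Mup3: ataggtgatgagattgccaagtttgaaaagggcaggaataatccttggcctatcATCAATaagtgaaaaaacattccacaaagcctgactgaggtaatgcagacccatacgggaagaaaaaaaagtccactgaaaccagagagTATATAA
Mup21: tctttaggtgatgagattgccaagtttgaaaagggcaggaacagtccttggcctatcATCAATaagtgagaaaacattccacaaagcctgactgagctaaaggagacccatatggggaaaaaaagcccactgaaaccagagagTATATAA

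These windows are chr4:60139877-60140026 (Mup2), chr4:60662391-60662540 (Mup11), chr4:61595851-61596000 (Mup17), chr4:62087322-62087471 (Mup3) and chr4:62150843-62150992 (Mup21). The stretch between ATCAAT and TATATAA was 120 bases in Mup2 and 117 in Mup11 and Mup17, and 83 in Mup3 and 80 in Mup21. Most of the extra length in the central members was an A-rich run that ended a short way before the box. Over the 60 bases from ATCAAT, Mup11 and Mup17 were identical, and Mup2 matched each of them at 98.3%. Mup3 and Mup21 each matched Mup11 and Mup17 at 90% and Mup2 at 88.3%, and matched each other at 90%. The central windows were thus closer to one another than to the distal ones. The distal windows were no closer to each other than to Mup11 or Mup17. Mup1, Mup12 and Mup20 had no entry in the promoter table.

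Searched on both strands of 300-base promoter windows, TATATAA was present in 5 of the 6 members with a window, the exception being Mup7, against 3.24% of 32851 windows of all genes. ATCAAT was present in all 6, against 7.54% of all windows. The spaced palindrome TTCNNNGAA, the form that STAT5 proteins bind, was in none of the 6 members and in 8.30% of all windows. The same arms set 4 bases apart rather than 3 were found in Mup7 and Mup11, against 6.95% of all windows. A window without these letters says nothing of sites elsewhere.

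The 3′ ends set how well the members can be told apart. Of the 90-base windows in the last 400 bases of the annotated transcripts, 100% of those of Mup1 and Mup2, 99.0% of those of Mup7, 83.9% of those of Mup12, 58.8% of those of Mup11 and 29.9% of those of Mup17 were also present in another Mup gene. No window of Mup20, Mup3 or Mup21 was shared. The split of UMIs (unique molecular identifiers, each marking 1 captured transcript molecule) among central members is therefore uncertain, and their sum is given beside the single values. Reads that matched several copies may also have gone uncounted, so the central level can be understated next to that of Mup20 or Mup3.

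The matrices listed 100171 barcodes with 85522287 UMIs for WT and 90147 barcodes with 87575064 UMIs for N-LKO. After filters for UMIs, genes, mitochondrial share and doublets, 18434 WT and 19851 N-LKO cells were kept, with medians of 1401 and 1454 UMIs. Of these, 9950 and 4065 fell in 5 clusters called hepatocyte-like from hepatocyte markers, with medians of 1519 and 1768 UMIs. Those clusters raised 4 to 10 of the 10 hepatocyte markers. Over the class as a whole Alb, which encodes albumin, stood at 21814 CPM in WT and 10869 in N-LKO (CPM, UMIs of a gene per 1000000 UMIs of the class). Nus1 itself was 73.1 CPM in WT and 33.9 in N-LKO cells of this class, but the deleted exon lies at the 5′ end and the tags at the 3′ end, so this is a limited check of the labels. The matrices shared 2499 barcodes, and 122 barcodes were kept as cells in both.

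The libraries filled different hepatocyte-like clusters. Cluster 0 held 8162 WT and 113 N-LKO cells, cluster 9 held 1169 and 24, and cluster 5 held 301 and 1948. Cluster 6, with 3 WT and 1971 N-LKO cells, and cluster 17, with 315 and 9, were rich in the nuclear RNA Malat1 at 20034 and 35689 CPM in the library with most of their cells. Clusters 0, 5 and 9 lay between 1465 and 8854 in their main library. Each main genotype difference is therefore given with and without the Malat1-rich clusters, a choice made after the data were seen. The Alb level of the whole class did not hold for N-LKO cluster 6. Per 1000 UMIs, its cells held a median of 4 Alb UMIs, as did N-LKO endothelial-like cells, against 14 in N-LKO cluster 5. Cluster 6 raised 4 of the 10 hepatocyte markers, but its median Alb count did not set it apart from endothelial-like cells.

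Mup20 was the most abundant member in both libraries. In WT hepatocyte-like cells it stood at 31707 CPM (95% exact Poisson interval 31622 to 31792, as all such intervals here for counting error only), and in N-LKO cells 29915 (29798 to 30033). One UMI stands for 1 molecule tagged at its 3′ end, so this scale is not divided by transcript length, and the longest annotated transcripts of the members were alike in size, from 677 bases in Mup21 to 1033 in Mup7. Mup3 followed at 12101 in WT and 3136 in N-LKO. The other 7 members were each below 400 CPM in WT.

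Among them Mup11 had 390 CPM in WT and 40.5 in N-LKO. Mup17 had 371 and 59.1, and Mup7 had 326 and 16.1. These 3 near-identical copies carried most of the central signal in WT. Mup21, the distal neighbour of Mup3, had 295 and 168. Mup12 had 208 and 6.21, Mup1 had 97.4 and 3.47, and Mup2 had 12.2 and 2.03. Of the central members, Mup12 and Mup1 thus lay under 10 CPM in N-LKO, as did Mup2, on 17 to 52 UMIs each. In the order of WT levels, the intervals of Mup11 and Mup17 did not overlap, but with shared 3′ ends these neighbours cannot be ranked.

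As log2 ratios of N-LKO over WT, the members spread from -5.05 for Mup12 to -0.08 for Mup20. Mup1 stood at -4.79, Mup7 at -4.33, Mup11 at -3.27, Mup17 at -2.65, Mup2 at -2.55, Mup3 at -1.95 and Mup21 at -0.81. Thus 7 of the 9 members were lower in N-LKO past 2-fold and none was higher past 2-fold. Of 10608 genes with at least 5 CPM in either library, 2.36% were lower past 2-fold and 20.8% were higher, but the members had been selected on this very contrast and nothing is read from their count. The median gene stood at 0.37, so each member lay lower still relative to it. Summed, the 6 central members stood at 1404 CPM in WT and 127 in N-LKO, and the log2 ratio was -3.46 (-3.55 to -3.37). In WT barcodes under 500 UMIs their level, 1594 CPM, was above that in WT cells. These barcodes, called near-empty here, start at 326 UMIs in WT and 377 in N-LKO, the lowest in each matrix, so emptier barcodes were not analysed here. In bulk sums of a class, fewer expressing cells and less message per cell cannot be told apart.

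The family sum moved far less. All 9 members summed to 45508 CPM in WT and 33347 in N-LKO, a log2 ratio of -0.45. Without Mup20, the other 8 went from 13801 to 3432, a log2 ratio of -2.01.

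**Figure D1:**
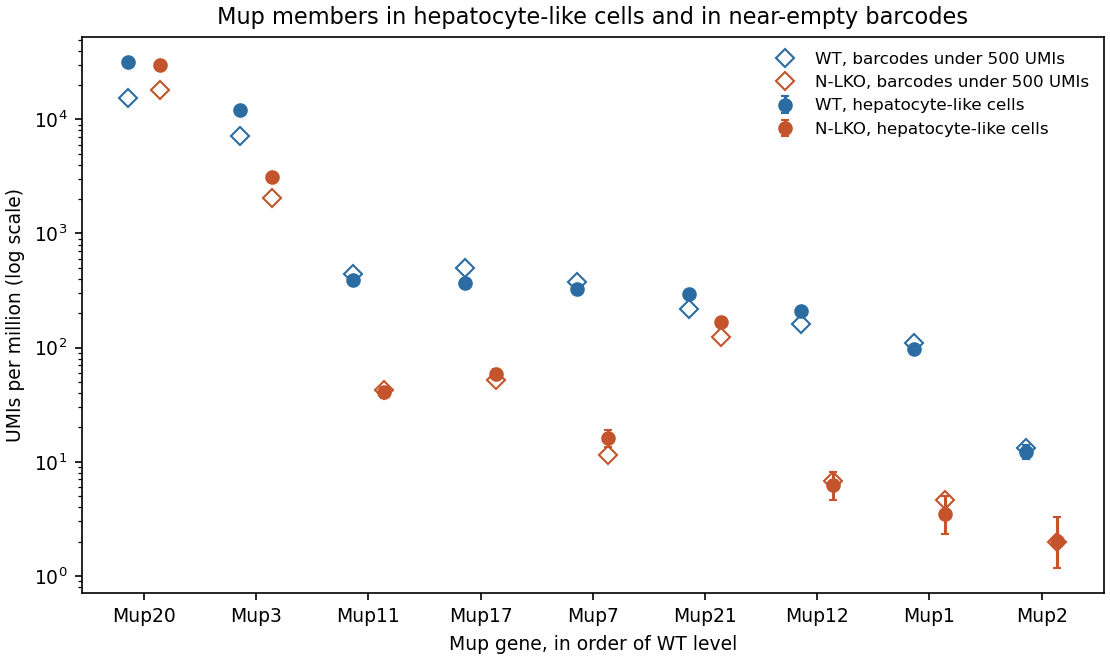
Level of each member in CPM (log scale) in hepatocyte-like cells of WT and N-LKO, filled points with 95% counting intervals, and in near-empty barcodes (under 500 UMIs) as open diamonds, 1 library per genotype. Mup20 sits at 31707 and 29915, Mup3 falls between 12101 and 3136, and the central members of N-LKO lie far below those of WT in cells and in near-empty barcodes alike.

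Leaving out the Malat1-rich clusters changed the direction for Mup20 and for the family sum. Mup20 then stood at 32679 CPM in WT and 49132 in N-LKO, a log2 ratio of 0.59, and the family sum at 46842 and 54747, a log2 ratio of 0.22. Mup3 remained below 0 at -1.27, with 12432 and 5143, and the central sum at -2.86, with 1430 and 196. Mup21 came to -0.13. The count of members lower past 2-fold was again 7 of 9, against 2.83% of 9951 genes lower and 5.66% higher, with a median gene at 0.07. So the counted levels of Mup3 and the central members were lower in N-LKO with or without these clusters, while no direction can be given for Mup20 or for the family as a whole. The central sum was also lower in near-empty barcodes of N-LKO, at 119 CPM against 1594 in WT. Over the whole class its difference is therefore not read as one of expression.

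Cluster 5 allowed both libraries to be read within a single cluster, with 301 WT and 1948 N-LKO cells. There Mup20 had 23149 CPM in WT cells and 48926 in N-LKO cells, and its log2 ratio was 1.08 (1.05 to 1.11). Mup3 stood at 9168 and 5042, a log2 ratio of -0.86. The central members stood at 2917 and 190, a log2 ratio of -3.94. Mup21, at 226 and 269, had an interval that spanned 0 (-0.02 to 0.54). Mup20 was thus higher and the central members lower in N-LKO cells of the same cluster. The WT cells of cluster 5, however, had Mup11 at 1101 and Mup17 at 1305 CPM, against 379 and 343 in WT cluster 0. Both genes varied with position along the liver lobule, as described below. The WT and N-LKO cells of this cluster may therefore differ in that position as well as in genotype, which was not tested. Mup20 and Mup3 were among the leading genes of this cluster, although no Mup gene was used to form it, and 4 of its 301 WT cells had a barcode also listed in the other library.

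In cluster 0, where N-LKO had only 113 cells, Mup20 was again higher and Mup3 and the central sum lower. Mup20 was 34681 in WT and 56615 in N-LKO, Mup3 was 13046 and 7593, and the central sum was 1372 and 331. Between the largest Malat1-rich cluster of each library, cluster 17 in WT and cluster 6 in N-LKO, Mup20 was 7869 and 6468, Mup3 was 4003 and 686, and the central sum was 781 and 43.5. Across these pairings the log2 ratio of the central sum ran from -4.16 to -2.04 and that of Mup20 from -0.28 to 1.08.

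The makeup of the Mup message differed between libraries in every class. Mup20 made up 69.7% of the UMIs of the 9 members in WT hepatocyte-like cells (69.6 to 69.8, exact binomial interval) and 89.7% in N-LKO (89.6 to 89.8). Mup3 made up 26.6% and 9.40%, and the central members 3.09% and 0.382%. In cluster 5 the share of Mup20 was 65.3% and 89.9%, and in the Malat1-rich clusters 61.5% in WT cluster 17 and 89.4% in N-LKO cluster 6. Unlike the family sum, this share pointed the same way in each of these clusters.

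Barcodes under 500 UMIs, taken as free RNA, showed a shift in makeup in the same direction. There Mup20 took 63.4% of the member UMIs in WT and 88.8% in N-LKO. Its level was 15468 CPM in WT and 18196 in N-LKO, whereas Mup3 was 7115 and 2043 and the central sum was 1594 and 119. Over the 10 other named cell classes, the share of Mup20 ran from 62.5% to 68.8% in WT and from 87.6% to 89.7% in N-LKO, and these ranges did not overlap. The shares in cells, in other classes and in near-empty barcodes of a library share the same free RNA and are not separate evidence.

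**Figure D2:**
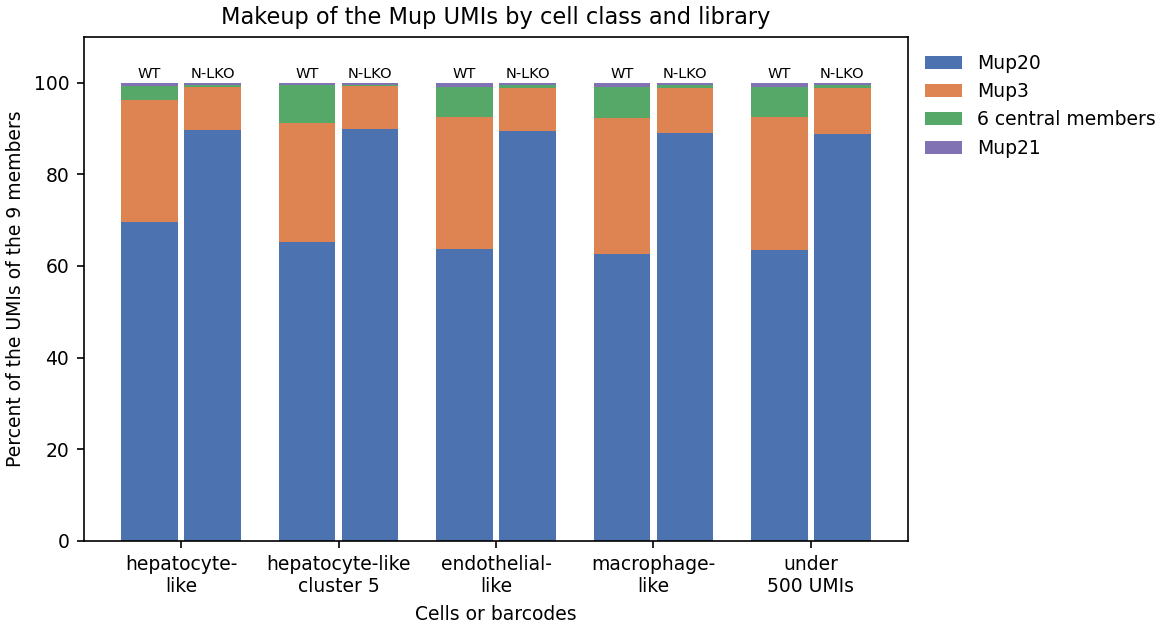
Percent of the UMIs of the 9 members taken by Mup20, Mup3, the 6 central members and Mup21 in 5 sets of cells or barcodes, WT left and N-LKO right in each pair, 1 library per genotype. Mup20 takes between 62.6% and 69.7% in WT bars and between 88.8% and 89.9% in N-LKO bars.

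Mup message was found in every class of cell. In WT the family sum ran from 6203 CPM in hepatic stellate-like cells to 22561 in erythroid-like cells, and in N-LKO from 6298 in hepatic stellate-like to 11397 in neutrophil-like cells. To read these values, the level that free RNA would give was computed from the near-empty barcodes and an estimated free RNA share. The counted sum was 1.02 to 1.36 times this level in the 10 other classes of WT (median 1.06) and 0.829 to 0.999 times in those of N-LKO (median 0.920). Mup UMIs in endothelial-like, immune and stellate-like cells thus stood at or close to background and are not read as expression there.

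In hepatocyte-like cells the family sum was 2.20 times that level in WT and 3.61 times in N-LKO. Mup20 was 2.42 and 3.64 times the free RNA level, and Mup3 was 2.01 and 3.40 times. Summed, the central members were 1.04 times the level in WT and 2.37 times in N-LKO. Within that WT sum Mup12 stood at 1.51 times (1.46 to 1.56), near Mup21 at 1.61, while Mup1, Mup2, Mup7 and Mup11 lay between 1.03 and 1.10 times. Mup17 was at 0.880 times in WT, below what free RNA alone would give, so the WT share of free RNA, estimated at 84.8% against 45.1% in N-LKO, is an upper estimate. In WT the central sum outside cluster 5 was close to its free RNA level: 0.960 times in cluster 0, 1.30 times in cluster 9 and 1.26 times in cluster 17. WT cluster 5 reached 4.01 times, with Mup11 at 5.51 and Mup17 at 5.75 times.

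In N-LKO the clusters split. The family stood at 6.65 times its free RNA level in cluster 5, at 54426 CPM, and at 0.693 times in the Malat1-rich cluster 6, at 7235. Mup message in cluster 6 was therefore not above the free RNA level, and this cluster held 1971 of the 4065 N-LKO cells of the class. Median mitochondrial share was 15.7% in cluster 5 and 14.6% in cluster 6 of N-LKO, and 21.7% in WT cluster 0. Mitochondrial limits of 10% and none were tried, and the family ratio changed direction at 10%.

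**Figure D3:**
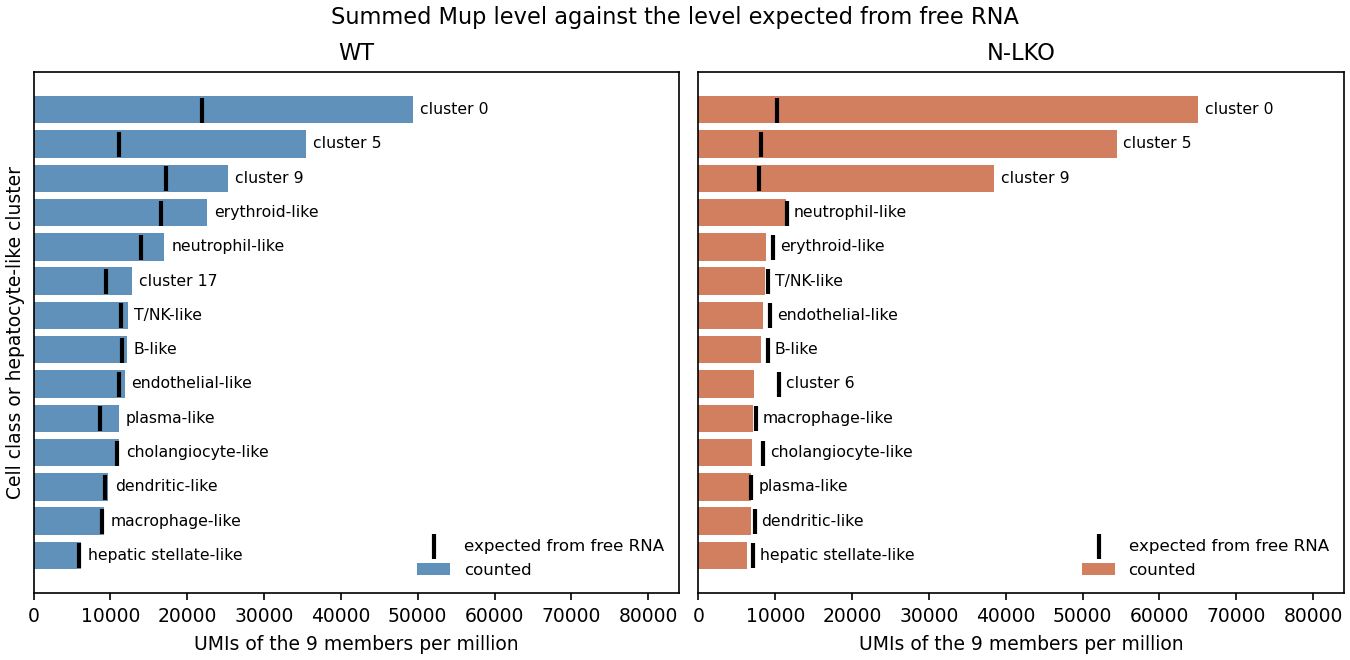
CPM of the 9 members, counted (bars) and expected from free RNA (black ticks), in each hepatocyte-like cluster of at least 20 cells and each other named cell class, WT left and N-LKO right. Bars of clusters 0, 5 and 9 pass their ticks in both libraries, while bars of the other classes lie near theirs and N-LKO cluster 6 lies below.

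Shares of cells with a UMI were compared after thinning each cell to 1000 UMIs, with no cell left out as too shallow. Mup20 was seen in 99.9% of hepatocyte-like cells of WT and 99.2% of those of N-LKO, and in 99.7% of endothelial-like cells of both libraries, so its detection says nothing of expression. For Mup3 the shares were 99.7% and 67.6%, beside 94.5% and 53.8% of endothelial-like cells (medians of 1173 and 1259 UMIs). At least 1 central UMI was seen in 70.0% of the WT hepatocyte-like cells (69.1 to 70.9) and 9.08% of the N-LKO ones (8.21 to 10.0). In endothelial-like cells the shares were 52.6% and 5.62%. Without thinning the hepatocyte-like shares were 82.8% and 13.8%. Detection of the central members over the whole class thus lay above that in endothelial-like cells in each library, and was lower in N-LKO in both classes. In N-LKO it was 12.5% in cluster 5 but 3.96% in cluster 6 (3.14 to 4.91), not above endothelial-like cells. In WT, with the central sum at 1.04 times its free RNA level, the higher detection is not read as expression.

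Cells of a cluster differed in Mup20 beyond counting error. Per 1000 UMIs, WT cells of cluster 0 held a median of 28 Mup20 UMIs, with 17 at the 10th and 59 at the 90th percentile. N-LKO cells of cluster 5 held a median of 44, with 8 and 95 at the same percentiles. N-LKO cells of cluster 6 held a median of 6. The coefficient of variation beyond counting error was 0.52 in WT cluster 0 and 0.67 in N-LKO cluster 5. For Mup3 it was 0.41 and 1.01, and for Alb 0.44 and 0.59, so such spread was not particular to Mup20. The 10th percentile of N-LKO cluster 5 thus lay below that of WT cluster 0 and its 90th percentile above.

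Within a cluster, Mup20 moved with Mup3. The Pearson correlation over cells was 0.55 in WT cluster 0 (8162 cells) and 0.42 in N-LKO cluster 5 (1948 cells), on thinned counts that share a fixed total. Between Mup20 and Mup21 it was 0.26 and 0.30, between Mup20 and the central sum -0.19 and 0.06, and between Mup20 and Alb 0.38 and -0.10. These values describe sparse counts of cells of a single library each and carry no test. In N-LKO cluster 5 the central sum was too sparse for its value to be set against that of Mup3, with means of 0.121 UMIs in the cells of lowest Mup20 and 0.283 in those of highest.

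Members also differed along the liver lobule. Periportal hepatocytes sit where blood enters the lobule and pericentral ones where it leaves, and cells were ordered by the share of pericentral UMIs among UMIs of fixed periportal and pericentral genes, none of them a Mup gene, into 5 bins. In WT, Mup20 was 45485 CPM in the most periportal bin and 37981, 26251, 24407 and 21645 in the bins that followed. Mup3 went from 16086 to 9581 and Mup21 from 434 to 186. All of the distal members were thus higher at the periportal end, with log2 ratios of pericentral over periportal of -1.07, -0.75 and -1.22. Alb also declined over these WT bins, from 27661 to 17702, so a lower level at the pericentral end was not particular to the family. In N-LKO Alb stood at 10844 and 11052 at the same ends.

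Mup11 and Mup17 ran the other way. Mup17 was 125 CPM at the periportal and 830 at the pericentral end of WT, a log2 ratio of 2.73 (2.58 to 2.88). Mup11 was 164 and 740, a log2 ratio of 2.17 (2.04 to 2.31). These carried the central sum from 994 to 2185. Mup7, at 355 and 338, had an interval that spanned 0, Mup2 likewise, and Mup12 and Mup1 were slightly higher at the periportal end with log2 ratios of -0.36 and -0.39. Pericentral bias in WT was therefore seen in Mup11 and Mup17. Mup1, Mup2 and Mup7 stood at 1.03 to 1.10 times their free RNA level in WT, with 3′ ends almost wholly shared. Their values thus cannot show whether such a bias was absent.

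In N-LKO the distal members again were higher at the periportal end, and Mup11 and Mup17 at the pericentral end. Mup20 was 36730 at the periportal and 20285 at the pericentral end, with its highest value, 46516, in the next bin. Mup3 was 4105 and 1966 and Mup21 285 and 62.7. Mup17 was 13.8 and 144, a log2 ratio of 3.35 (2.70 to 4.15), and Mup11 was 22.5 and 72.5, a log2 ratio of 1.67. Mup7, level in WT, was 10.2 and 20.4 in N-LKO, a log2 ratio of 0.98 with an interval just above 0 (0.04 to 2.04). Mup12, at 0.26, Mup1 and Mup2 had intervals that spanned 0 there. The central members of N-LKO were thus lower than those of WT at both ends of the axis, at 56.7 and 247 against 994 and 2185. Fewer than 3 UMIs of zonation genes left out 112 WT and 703 N-LKO cells.

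Within the largest cluster of each library outside the Malat1-rich ones, Mup20 and Mup17 kept these directions. Mup20 was 49906 and 23682 in WT cluster 0, and 57325 and 34007 in N-LKO cluster 5. Mup17 was 112 and 716, and 18.8 and 235. Free RNA was not subtracted along the axis, and bins rest on few zonation UMIs per cell.

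**Figure D4:**
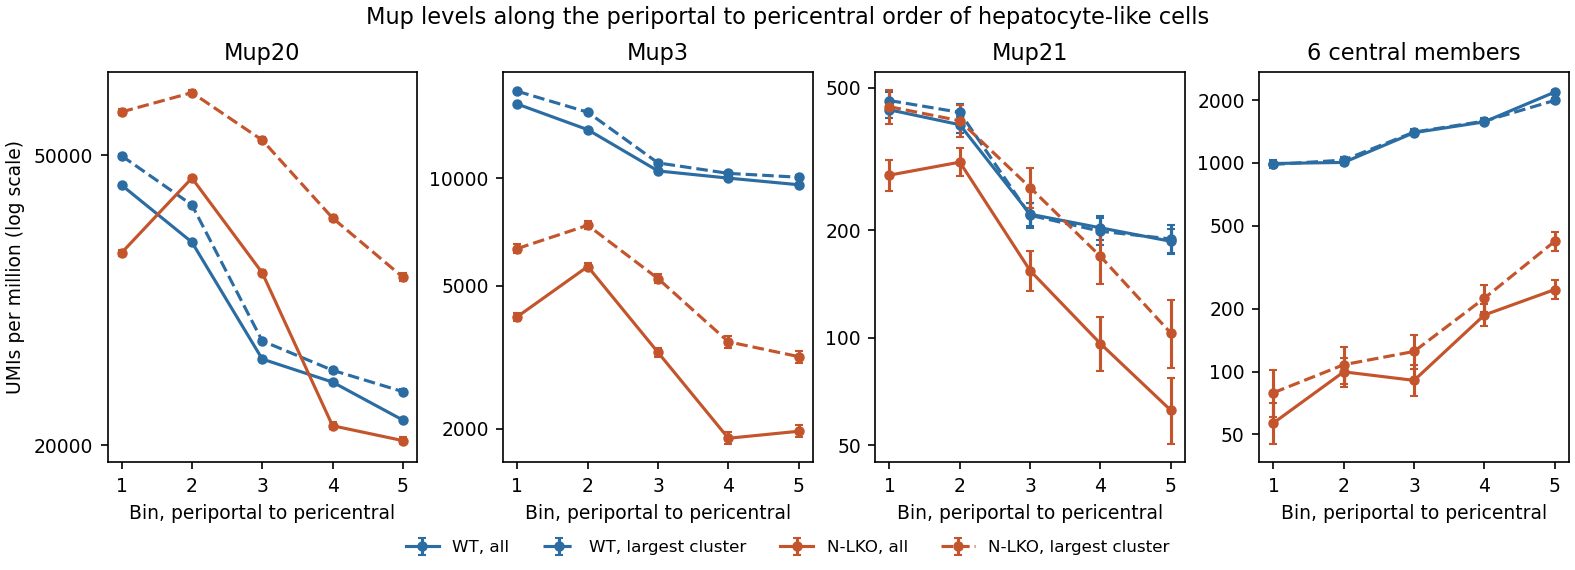
CPM (log scale) along 5 bins of hepatocyte-like cells ordered from periportal (1) to pericentral (5), for Mup groups of WT and N-LKO, with 95% counting intervals. Solid lines are all hepatocyte-like cells and broken lines the largest cluster of each library outside the Malat1-rich ones. Mup20 declines from 45485 to 21645 in WT while the central sum climbs from 994 to 2185 in WT and from 56.7 to 247 in N-LKO.

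Of the 13 Mup features outside the selected set, 5 reached 5 CPM in a library. In N-LKO 4 of those 5 were lower past 2-fold, where 2.36% of all genes were. Mup9 went from 108 to 13.5, Mup14 from 78.0 to 18.4, Mup16 from 31.5 to 2.51 and Mup18 from 30.02 to 10.4. Mup10, at 7.92 and 4.90, was within 2-fold. Mup16 and Mup10 reached 5 CPM only through WT, so neither could have been counted as higher, and nothing is read from their direction. In WT Mup9 stood above the members Mup1 and Mup2, and Mup14, Mup16 and Mup18 above Mup2. All 5 are near-identical copies that share 3′ ends with the central members, so their UMIs may in part be those of members. Without the Malat1-rich clusters 3 of the 5 were lower past 2-fold, against 2.83% of all genes. Mup16, among those lower, again passed only through WT.

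The male-biased genes that growth hormone controls in liver were set beside the family. Of 16 on the list, 14 reached 5 CPM, 6 were lower past 2-fold in N-LKO and 1 higher, where 2.36% of all genes were lower and 20.8% higher. The median log2 ratio of the list was -0.70, against 0.37 for all genes. Hsd3b5, a male-specific hydroxysteroid dehydrogenase, went from 347 to 3 UMIs, a log2 ratio of -5.63 (-8.13 to -4.29). Slco1a1, an organic anion transporter, stood at -3.96, and Elovl3, a fatty acid elongase, at -2.81. At the other end were Moxd1 at 3.76, on 8 WT UMIs, the complement component C6 at 0.85 and Susd4 at 0.62. Hsd3b5 passed the 5 CPM filter only through WT and Moxd1 only through N-LKO. Without the Malat1-rich clusters the counts were 5 lower and 0 higher of 13, with a median of -0.82. Of all genes, 2.83% were then lower and 5.66% higher. Hsd3b5, Slco1a1 and Elovl3 ranked beside the central Mups in size of difference, whereas Cyp7b1, at -0.20 with all clusters, did not.

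Of the 18 female-biased genes, only 6 reached 5 CPM, and all 6 were higher in N-LKO past 2-fold, where 20.8% of all genes were. Cyp2b9, Cux2, Fmo2 and Cyp2a4 were under 5 CPM in WT and passed only through N-LKO. Their direction was thus fixed by the filter, and nothing is read from it. Only Prlr and Tox reached 5 CPM in WT. At a 50 CPM filter these 2 genes were left, both higher past 2-fold. Tox, at 44.6 CPM in WT, passed that filter only through N-LKO, and only Prlr, at 55.5, passed through WT. The share of all genes higher at that filter was not computed. The median log2 ratio of the 6 was 3.03. Cyp2a4, a steroid hydroxylase, had 1 UMI in WT and 67 in N-LKO, and its log2 ratio was 6.50 (4.54 to 12.4). Fmo2 stood at 3.58, Cux2, a repressor of male-biased genes in female liver, at 3.12, Cyp2b9 at 2.94, Tox at 2.91 and the prolactin receptor Prlr at 1.94. Without the Malat1-rich clusters 4 reached the filter and 3 were higher past 2-fold, where 5.66% of all genes were. Cyp2b9 and Cyp2a4 again passed only through N-LKO. The median was then 1.66, while Prlr came to 0.01. The median turned to -1.29, over 4 genes, when cells were held to a mitochondrial share of 10%.

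**Figure D5:**
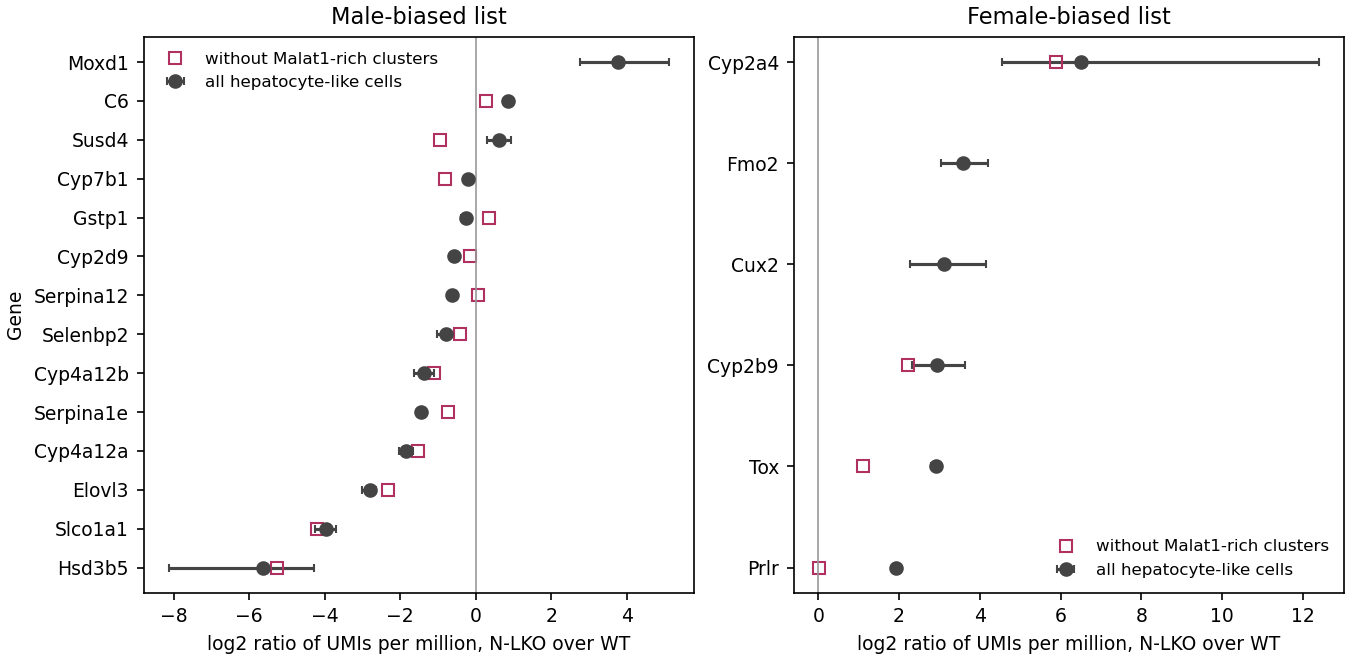
log2 ratio of CPM, N-LKO over WT, for genes of the male-biased list (left) and the female-biased list (right) with at least 5 CPM in either library, filled points with 95% counting intervals for all hepatocyte-like cells and open squares without the Malat1-rich clusters. Hsd3b5 lies at -5.63 and Slco1a1 at -3.96 on the left, and Prlr moves from 1.94 to 0.01 on the right.

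Genes of growth hormone signalling gave no single direction. Over 10 genes of that list, 4 were higher and 0 lower past 2-fold, beside 20.8% and 2.36% of all genes, with a median of 0.52. The feedback inhibitors Cish (3.19), Socs2 (2.10) and Socs3 (1.80) were the highest, on 20 to 38 WT UMIs each. Each of them was under 5 CPM in WT and passed the filter only through N-LKO. Their direction was thus fixed by the filter, and nothing is read from it. Igfals (-0.75), Igf1 (-0.36) and the receptor Ghr (-0.09) were the lowest. Without the Malat1-rich clusters the median was -0.29, Ghr came to -1.39, and Socs2 and Socs3 each came to 2.27, again passing only through N-LKO.

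Transcription factors tied to Mup transcription went both ways. Of 12, Onecut1 at 2.41, Ppara at 1.42 and Zhx2 at 1.17 were higher past 2-fold and Cebpa at -1.10 was lower, with a median of 0.61, where 20.8% of all genes were higher and 2.36% lower. Foxa1 at -0.19 and Foxa2 at -0.02 were the next lowest. Without the Malat1-rich clusters the median was -0.06. Only Onecut1 at 1.09 and Cebpb at 1.02 were then past 2-fold, where 5.66% of all genes were higher. Ppara then stood at -0.05 and Zhx2 at -0.27, so their direction turned with those clusters.

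Other lipocalins did not share the pattern of the central Mups. Of 8 secreted lipocalins, 3 were higher past 2-fold and none lower, beside 20.8% and 2.36% of all genes, and all 3 belong to the acute-phase group: Lcn2, which binds bacterial siderophores, at 4.30, and the orosomucoids Orm2 at 3.22 and Orm3 at 2.52. C8g at -0.41, the retinol carrier Rbp4 at -0.03 and Ambp at 0.02 were the lowest. Orm3, at 2.62 CPM in WT, passed the 5 CPM filter only through N-LKO. Leaving out the Malat1-rich clusters gave 4 higher and none lower, beside 5.66% and 2.83% of all genes. The median was then 1.20 against 0.58.

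Abundant secreted hepatocyte proteins, the nearest match to Mups in abundance and route, stayed mostly within 2-fold. Of 20, 1 was lower past 2-fold and none higher, where 2.36% of all genes were lower and 20.8% higher. The lowest was Alb at -1.01, with Apoc1 at -0.73 and Apoa2 at -0.42 next. The fibrinogen chain Fgb at 0.59, the heme carrier Hpx at 0.57 and Apoa1 at 0.39 were the highest. The median was -0.11, and 0.35 without the Malat1-rich clusters. Without them none was lower past 2-fold, with Alb at -0.46. Then 2 were higher, Fgb at 1.16 and Hpx at 1.15, where 2.83% of all genes were lower and 5.66% higher. The value of Mup20, at -0.08 and 0.59, lay within the range of this list in both settings, and those of Mup3 and the central sum lay below its lowest member.

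The medians of both zonation lists lay below 0. Of 8 pericentral genes 2 were lower past 2-fold and none higher, where 2.36% of all genes were lower and 20.8% higher. The median of this list was -0.91. Its lowest genes were Oat at -2.22, Glul at -1.69 and Cyp1a2 at -0.96, and its highest Gulo at -0.09, Slc1a2 at -0.20 and Lect2 at -0.49. Of 10 periportal genes 3 were lower and none higher, with a median of -0.62. Cyp2f2 and Gls2 both stood at -1.70 and Hal at -1.48, with Hsd17b13 at 0.20, Ctsc at 0.07 and Sds at -0.22 the highest. Without the Malat1-rich clusters 4 of the 8 pericentral genes were lower past 2-fold, where 2.83% of all genes were. Of the 8, 2 lay above 0, the median was -0.97, and Slc1a2 became the lowest at -1.96. The periportal list then had 3 lower past 2-fold, 6 of 10 below 0 and 4 above, with a median of -0.44.

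Genes with the pattern most like that of the family were sought among 2684 genes with at least 50 CPM in WT hepatocyte-like cells, over 26 class or cluster sums of at least 100 cells from both libraries, by Pearson correlation of log2 levels. The family sum was closest to Serpina1b at 0.98, Scd1 at 0.98, Serpina3k at 0.97, Rbp4 at 0.97, Serpina1a at 0.97, Alb at 0.96, Apoc2 at 0.96, Mgst1 at 0.96, C8g at 0.96 and Asgr1 at 0.95. These are hepatocyte messages, and the sums share free RNA within a library, so high values are the rule.

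The members themselves fell into different company. Mup20 was closest to Apof, Apoh and Apoa1 at 0.96, 0.95 and 0.95, Mup3 to Serpina1e, Cat and Apoc1 at 0.98 each, and the central sum to Car3 at 0.99, Fasn at 0.97 and Sult2a8 at 0.97, with Elovl3 of the male-biased list the next at 0.96. Among members, Mup21 and Mup3 correlated at 0.94 and the central sum and Mup3 at 0.92. Mup20 and Mup3 correlated at 0.68, and Mup20 and the central sum at 0.36. Over these sums the central members thus tracked Mup3 more closely than Mup20. The sums pool both libraries, and most are of other classes, whose Mup UMIs stood close to background. Mup3 and the central sum were lower in N-LKO in the near-empty barcodes too, and Mup20 was not. These values therefore cannot be told apart from the genotype contrast on which the members were selected, and shared control is not read from them.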

How the data were processed

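Single-cell libraries of WT and N-LKO liver were analysed, 1 per genotype, so no test across animals was possible and no p-value is given. The deposited matrices hold UMI counts per gene and barcode, made by the authors with Cell Ranger (7.1.0 in the matrix header). The submitters' processing notes also name Seurat and mm9. No other column of per-sample values was left unused (0).

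Cells had at least 1000 UMIs and 400 genes and at most 30% mitochondrial UMIs. Doublets were scored with Scrublet in scanpy 1.11.5 (expected rate 10%) and 1724 WT and 2363 N-LKO cells with a score above 0.25 were removed. Cells of both libraries were clustered together without integration (2000 variable genes, 0 of them Mup genes, 30 principal components, 20 neighbors, leidenalg 0.10.2, resolution 0.3) and clusters were named from marker lists where at least 3 markers were raised. UMIs were summed per class and library and divided by all UMIs (CPM, per 1000000). A log2 ratio adds 0.5 UMI to each count. The 95% intervals are exact (Poisson, or Clopper-Pearson for shares) and cover counting error only. A gene entered counts of genes at 5 CPM in either library, and called means past 2-fold. The free RNA share came from markers of other cell types in hepatocyte-like cells, and from abundant hepatocyte messages in other classes. Apoe and Apoc1 were left out of the latter after their macrophage values had been seen. Estimates were tested on simulated data. Promoters came from RefSeq and gene positions from GENCODE M21, both GRCm38.

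The members and gene lists were chosen with earlier results of these data known. The split into central and distal members, the printed windows and motifs, the Malat1 limit of 15000 CPM, the single-cluster comparison and the share of Mup20 were chosen after the data were seen. Named genes were all members, other Mup features at 5 CPM, the 3 highest and 3 lowest genes of each list and the 10 genes most like the family. The others named, such as Cyp7b1, were chosen after their values were seen. Alternatives are given in the closing section.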

Additional observations from a re-analysis of the deposited data

How the results depend on the processing

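No paired analysis was possible because each genotype had 1 library. For the same reason no replicate could be left out. The log2 ratio of the family sum, -0.45, had no stable direction. It was -0.61 at a minimum of 500 UMIs, -0.96 at 2000 UMIs, -0.66 with no mitochondrial limit, -0.49 with no doublets removed, -0.57 with Mup genes kept for clustering, -0.15 with a marker gate, -0.55 over a total without mitochondrial and Mup UMIs, -0.82 relative to the median gene and -1.23 with free RNA subtracted. It was -2.76 when clusters past 2-fold of the class in Malat1 were left out, a rule that kept WT cluster 0 and N-LKO clusters 6 and 17. It turned to 1.28 at a 10% mitochondrial limit (748 WT and 234 N-LKO cells) and, in settings added after seeing the data, to 0.22 without the Malat1-rich clusters and 0.62 in cluster 5 alone. Mup20 turned to 1.66, 0.21, 0.59 and 1.08 at the 10% limit, the gate, without the Malat1-rich clusters and in cluster 5. Mup21 turned to 0.25 at the 10% limit and 0.25 in cluster 5. Mup1, Mup2, Mup3, Mup7, Mup11 and Mup12 stayed below 0 in all 14 alternatives and Mup17 in the 13 that gave a value. With free RNA subtracted, no Mup17 was left in WT, where it stood at 0.880 times its free RNA level. Some was left in N-LKO, at 2.51 times. For Mup17 that setting thus went the other way, though it gave no ratio. All alternatives were run, and the cause of these shifts was not tested.

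The share of Mup20 was 20.04 percentage points higher in N-LKO, and 18.1 at 2000 UMIs, 21.3 at the 10% limit, 20.3 with no mitochondrial limit, 19.7 with no doublets removed, 19.2 under the Malat1 rule, 19.9 with the gate, 15.3 with free RNA subtracted and 24.6 in cluster 5. The N-LKO family level over free RNA, 3.61, was 2.94 at 500 UMIs, 2.10 at 2000 UMIs, 6.97 at the 10% limit, 2.35 with no limit, 3.70 with no doublets removed, 2.63 with Mup genes kept, 0.702 under the Malat1 rule, 7.64 with the gate, 3.52 with a background under 450 UMIs, 4.37 with endothelial and stellate lists only and 6.62 without the Malat1-rich clusters. The share of N-LKO cells with a central UMI was 12.8% without them.

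Along the axis, the WT family ratio of -0.91 was -1.22 at the 10% limit, -0.96 with no doublets removed, -0.80 in 3 bins, -1.17 in cells of at least 2000 UMIs, -0.92 without the Malat1-rich clusters and -0.94 in the largest cluster. The N-LKO ratio of -0.87 was -0.37, -0.92, -0.97, -0.81 and -0.77 at the 10% limit, in 3 bins, in cells of at least 2000 UMIs, without the Malat1-rich clusters and in the largest cluster. The WT central ratio of 1.14 was 0.39 at the 10% limit, 1.02 in 3 bins, 1.01 at 2000 UMIs and 1.02 in the largest cluster, and the N-LKO central ratio of 2.12 was 2.59 at the 10% limit, 1.63 in 3 bins and 2.53 without the Malat1-rich clusters. At the 10% limit and without the Malat1-rich clusters, respectively, list medians turned to -0.057 and -0.29 for growth hormone signalling, to -0.31 and -0.056 for transcription factors and to 0.99 and 0.35 for secreted proteins. The female-biased median was -1.29 and 1.66. A single library per genotype and a shallow depth per cell limit every value.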
